A study of Mus musculus with 2 samples.

Results

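The 10 genes examined encode the proteins with which the liver builds and dresses its secreted lipoproteins: Apob, Mttp, Tm6sf2, Apoa1, Apoa2, Apoa4, Apoa5, Apoc1, Apoc3 and Apoe. They were chosen by symbol, and all 10 were found among the 32285 genes counted. Very low density lipoprotein (VLDL) forms in the endoplasmic reticulum of the hepatocyte, where the microsomal transfer protein Mttp loads lipid onto the growing ApoB chain. Tm6sf2 helps to enlarge the particle, which leaves the cell carrying smaller apolipoproteins. ApoC3 slows and ApoA5 speeds the clearance of its triglyceride, ApoE is the ligand for uptake by liver receptors, and ApoA1 and ApoA2 are the main proteins of high density lipoprotein.

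Liver cells of mice fed for 16 weeks were profiled in a single library for each group. WT is liver of mice with the control genotype (CTRL), from which hepatocytes and non-parenchymal cells were mixed. N-LKO is liver plus tumor of mice in which albumin-Cre, active in hepatocytes, had deleted floxed Nus1, the gene of the NgBR protein (labelled NgBR KO); hepatocytes, non-parenchymal cells and tumor cells were mixed for it. Both groups were on the C57BL6 background. They are labelled WD (a Western-type diet, high in fat and cholesterol) in the treatment field and HFD (high-fat diet) in the titles. The study gives WD as the diet of the mice used for single-cell sequencing. The age of the mice is not given in the labels. The libraries thus differ at once in genotype and in tumor tissue, and the parts of these and of the library itself in any difference cannot be told apart. With 1 library per group no test between groups was possible. The unit below is the counts-per-million value (CPM), with the UMIs of a gene summed over the cells of a class, ratios are log2 of N-LKO over WT, and every interval is an exact 95% interval that covers counting error only.

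The libraries held 85522287 UMIs in WT and 87575064 in N-LKO, and 2499 barcodes occurred in both. After filtering, 18431 WT and 19855 N-LKO cells fell into 22 clusters, made without the 10 genes. Of these, 5 were hepatocyte-like, with 9948 WT and 4579 N-LKO cells. All 12 hepatocyte markers were detected in both libraries, at a summed 47409 CPM for WT and 28741 CPM for N-LKO. Nus1 was at 73.1 CPM (69.0 to 77.3) in WT hepatocyte-like cells and at 36.7 CPM (33.0 to 40.8) in N-LKO. Barcodes under 500 UMIs, 18526 in WT and 13674 in N-LKO, served as the measure of RNA free in the suspension.

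A pair of features touches every value below. First, the hepatocyte-like clusters were nearly private to a library. Cluster 0 held 8299 WT and 82 N-LKO cells, while cluster 6 held 117 WT and 1983 N-LKO cells. The remaining large N-LKO cluster, number 4, held 22 WT and 2486 N-LKO cells and was rich in Malat1, a long RNA kept in the nucleus, at 1.96% of UMIs against 0.879% in cluster 0 and 0.454% in cluster 6. Its leading genes (Grip1, Pdzrn3, Tmem45b) are no hepatocyte markers, its hepatocyte marker score was 0.198, and it counts as hepatocyte-like under a limit of 0.15 that was chosen after the data had been seen. Cluster 17 (321 WT cells, 3.54% Malat1) and cluster 9 (1189 WT cells, 0.15%) were the other extremes. Clusters 0 and 6 are therefore also summed by themselves below as the hepatocytes with a middle Malat1 share, 8416 WT and 2065 N-LKO cells. The libraries were not matched by this: Malat1 took 0.872% of UMIs in WT and 0.454% in N-LKO. Over all hepatocyte-like cells it took 0.921% and 1.23%. Cluster 6 stayed in at 0.517 times the median share of the clusters, near the limit of 0.5. Cluster 4 fell out at 2.23 times, near the limit of 2. Second, free RNA was rich in the 10 genes, which took 5.13% of the UMIs of barcodes under 500 UMIs in WT and 2.90% in N-LKO, against 4.68% and 3.40% in the hepatocyte-like cells. From markers of other cell types, free RNA was estimated to make up a share of 0.751 of the UMIs of hepatocyte-like cells in WT and 0.507 in N-LKO, and of 0.776 and 0.359 over clusters 0 and 6. With that share subtracted, the log2 ratios over all hepatocyte-like cells were -1.43 for Apob, -0.63 for Mttp, -1.76 for Tm6sf2, -2.06 for Apoa5, -0.80 for Apoe, 0.09 for Apoa1, 1.37 for Apoc1 and 0.94 for Apoc3, and no Apoa2 was left in WT. The estimate is doubtful: for the 22 WT cells of cluster 4 it gave 2.16, a value that a share cannot reach. The subtracted ratios are therefore given only as an alternative.

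**Figure D1:**
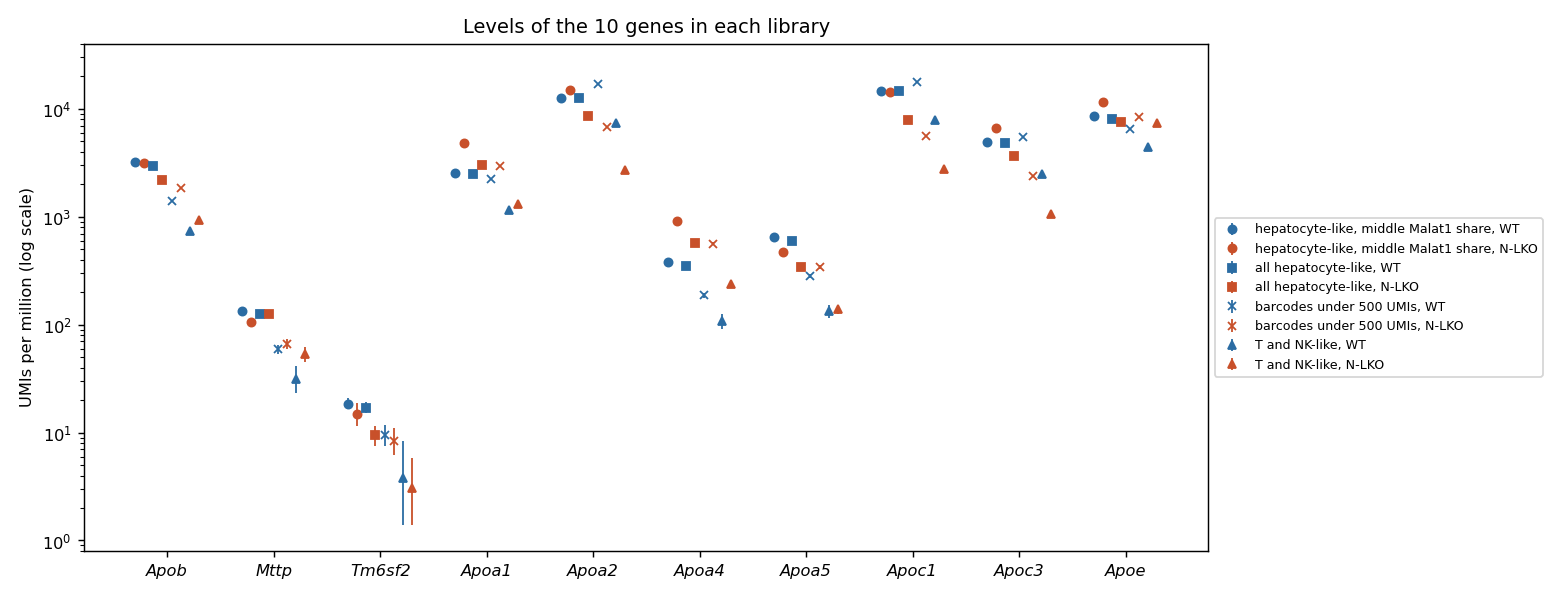
Level of each of the 10 genes (CPM, log scale) in hepatocyte-like cells, in the subset with a middle Malat1 share, in barcodes under 500 UMIs and in T and NK-like cells of each library, with exact 95% Poisson intervals. Apoa2, Apoc1 and Apoc3 were higher in WT barcodes under 500 UMIs than in WT hepatocyte-like cells, while Apob and Mttp were above free RNA in both libraries.

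The 10 genes lie at 6 places in the genome (GRCm38, GENCODE M21, matched by gene identifier, while the submitters' processing notes name mm9). Apoa1 (chr9:46228580-46230466), Apoc3 (chr9:46232933-46235636), Apoa4 (chr9:46240696-46243459) and Apoa5 (chr9:46268633-46271919) are neighbours, with Apoc3 on the minus strand and the others on the plus strand. Apoe (chr7:19696109-19699188) and Apoc1 (chr7:19689481-19692660) are neighbours on the minus strand. Apob is at chr12:7977648-8016835, Mttp at chr3:138089854-138144968, Tm6sf2 at chr8:70072924-70080066 and Apoa2 at chr1:171225054-171226379. Their mature mRNAs run from 518 nt for Apoa2, 526 nt for Apoc3 and 532 nt for Apoc1 to 13934 nt for Apob, and this spread returns in the measurements.

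The chromosome 9 neighbours are shown with the DNA just before their starts, because their levels moved apart between the libraries, and Apob is set beside them. Promoters of 7 of the 10 genes were in the RefSeq table for GRCm38.p6. The stretches below are read on the gene's own strand, all 4 of them plus, and end before the first base of the gene in either annotation, and capitals mark TATAAA on that strand.
Apoa1, chr9:46228460-46228579: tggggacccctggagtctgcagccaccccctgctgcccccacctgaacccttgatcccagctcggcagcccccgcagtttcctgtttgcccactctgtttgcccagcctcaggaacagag
Apoa4, chr9:46240594-46240695: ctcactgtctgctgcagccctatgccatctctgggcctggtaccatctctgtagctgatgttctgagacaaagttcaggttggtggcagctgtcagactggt
Apoa5, chr9:46268488-46268607: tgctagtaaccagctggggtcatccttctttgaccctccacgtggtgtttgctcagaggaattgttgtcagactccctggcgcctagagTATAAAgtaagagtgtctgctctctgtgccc
Apob, chr12:7977528-7977647: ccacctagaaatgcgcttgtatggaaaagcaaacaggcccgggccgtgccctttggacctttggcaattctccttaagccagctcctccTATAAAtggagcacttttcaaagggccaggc
In the 250 bases before the RefSeq start, TATAAA began at -31 in Apoa5 and at -60 in Apob. The positions depend on the start used: from a second RefSeq start of Apoa5 it was at -56. Bases before the RefSeq start that lie inside the GENCODE gene are left out of the stretches: 29 for Apob, 50 for Apoa1 and 148 for Apoa4. The windows searched kept these bases. Of 27025 promoters, 8.12% held TATAAA on the gene's strand. The nuclear receptor half-site AGGTCA, in 13.8% of promoters on either strand, and the longer forms CAAAGTCCA (0.381%) and CAAAGGTCA (0.407%), of which the last contains AGGTCA, were in none of these 4 windows. Only exact copies of these letters were sought, so sites that differ by a base were not looked for.

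Over all hepatocyte-like cells, 7 of the 10 genes were lower in N-LKO and 3 were higher, and none was past 2-fold in either direction. Among 10737 genes at 5 CPM or more in a library, 28.3% were lower in N-LKO and 71.7% higher. Of the same genes, 24.9% were 2-fold or more higher in N-LKO and 2.51% were 2-fold or more lower. The median ratio of the 10 genes was -0.42, against 0.45 for all genes. Their sum went from 4.68% to 3.40% of UMIs, a ratio of -0.46 (-0.47 to -0.45). That picture turned once the Malat1-rich and Malat1-poor clusters were left out. This reversed the Malat1 gap between the libraries and did not close it, so the cells compared were not matched for Malat1. Over clusters 0 and 6, the summed ratio was 0.26 (0.25 to 0.26), the median ratio 0.11 against 0.07 for all genes, and 5 genes were higher and 5 lower. There 56.4% of 9954 genes were higher and 43.6% lower, so the 10 genes were split much as all genes were. Of all genes, 6.02% were 2-fold or more higher and 3.12% 2-fold or more lower, and 1 of the 10, Apoa4, was past 2-fold.

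Apob encodes the structural protein of VLDL. It was at 2975 CPM for WT and 2194 CPM in N-LKO hepatocyte-like cells, a ratio of -0.44 (-0.46 to -0.42). Over clusters 0 and 6 it was at 3220.5 CPM (3191 to 3249.7) in WT and 3135 CPM (3083 to 3186) in N-LKO, a ratio of -0.04 (-0.07 to -0.01). The lower level over all hepatocyte-like cells thus came with the Malat1-rich N-LKO cluster 4, where Apob was at 1309.7 CPM. Within cluster 6 the ratio was 0.01 (-0.10 to 0.12), and within cluster 0 it was -0.23 (-0.38 to -0.09), on 82 N-LKO cells.

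Mttp, the lipid transfer protein that loads ApoB, was at 125 CPM in the hepatocyte-like cells of both libraries, with an interval of the ratio from -0.10 to 0.11. Over clusters 0 and 6 it was at 134 CPM (128 to 140.0) in WT and 106 CPM (97.0 to 116) in N-LKO, a ratio of -0.33 (-0.48 to -0.19). Within cluster 6 the ratio was -0.81 (-1.25 to -0.30) and within cluster 0 it was -0.68 (-1.70 to 0.07). Mttp thus lay lower in N-LKO in both clusters, with an interval that reached 0 in the second. In the Malat1-rich N-LKO cluster it was at 143 CPM, above cluster 6, unlike the other 9 genes.

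Tm6sf2 was the least abundant of the 10, at 17.1 CPM (15.2 to 19.2) in WT and 9.42 CPM (7.57 to 11.6) in N-LKO hepatocyte-like cells. Summed over clusters 0 and 6 it was at 18.5 CPM and 14.7 CPM, from 271 and 67 UMIs. The interval of that ratio, -0.74 to 0.06, included 0, so that a difference was not detectable at this depth.

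Apoa1, the main protein of high density lipoprotein, was at 2505 CPM for WT and 3032 CPM in N-LKO hepatocyte-like cells, a ratio of 0.28 (0.25 to 0.30), which turned to -0.052 under a mitochondrial limit of 10% and to -0.18 when centred on the median of all genes. Over clusters 0 and 6 it was at 2575 CPM (2549 to 2601) and 4866 CPM (4802 to 4930.2), a ratio of 0.92 (0.89 to 0.94). Within clusters the gap was smaller, 0.63 (0.51 to 0.74) in cluster 0 and 0.54 (0.44 to 0.65) in cluster 6, and N-LKO was the higher library in both. Its partner Apoa2 was at 12650.3 CPM and 15110.2 CPM over clusters 0 and 6, a ratio of 0.26 (0.24 to 0.27). The sign of Apoa2 depended on the cells summed: its ratio was -0.56 over all hepatocyte-like cells, 0.20 within cluster 0 and -0.12 within cluster 6.

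Apoa4, an apolipoprotein of triglyceride-rich particles, had the widest gap of the 10 over clusters 0 and 6, though not over all hepatocyte-like cells or within either cluster. It was at 351 CPM (342 to 360.1) in WT and 570.3 CPM (555 to 586) in N-LKO over all hepatocyte-like cells, and at 380.0 CPM (370.0 to 390.1) and 916 CPM (889 to 945) over clusters 0 and 6. The latter ratio was 1.27 (1.21 to 1.33), and that of free RNA was 1.59. With free RNA subtracted, the ratio over all hepatocyte-like cells turned from 0.70 to -0.38. Within cluster 6 it was 0.53 (0.29 to 0.78), and within cluster 0 it was 0.14 (-0.26 to 0.49). Cluster 6 was at 646 CPM even in its 117 WT cells. As cluster 0 was nearly all WT and cluster 6 nearly all N-LKO, a gap between clusters and one between libraries cannot be told apart. With cells thinned to 1000 UMIs, 28.6% of WT cells (27.7 to 29.6) and 45.2% of N-LKO cells (43.0 to 47.4) of clusters 0 and 6 held an Apoa4 UMI. T and NK-like cells, which should not make the protein, held one in 10.4% and 21.9% of cells. The median depth before thinning was 1581.5 and 1944 UMIs in clusters 0 and 6, and 1190.5 and 1357 UMIs in the T and NK-like cells; the shares before thinning were 42.8% and 61.8%, and 13.2% and 29.8%.

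Apoa5, which speeds triglyceride clearance and lies next to Apoa4, was on the opposite side. It was at 600.1 CPM (588 to 612) in WT and 339 CPM (328 to 351) in N-LKO hepatocyte-like cells, a ratio of -0.82 (-0.88 to -0.77), and at 643 and 472 CPM over clusters 0 and 6, a ratio of -0.45 (-0.51 to -0.38). Within cluster 6 the ratio was 0.01 (-0.27 to 0.31) and within cluster 0 it was -0.17 (-0.50 to 0.13). A lower Apoa5 was thus not seen inside either cluster beyond counting error. The interval in cluster 0 still included the summed ratio of -0.45, so a drop of that size there was not excluded, while the interval in cluster 6 did not include it. Because cluster 0 was nearly all WT and cluster 6 nearly all N-LKO, a difference between clusters cannot be told apart from one between libraries.

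Apoc1 and Apoc3 hold back the clearance of triglyceride-rich particles. Apoc1 was at 14616 CPM for WT and 7980.1 CPM in N-LKO over all hepatocyte-like cells, but at 14819 CPM and 14257 CPM over clusters 0 and 6, a ratio of -0.06 (-0.07 to -0.04). Apoc3 was at 4852 CPM and 3695 CPM over all, and at 4950.1 CPM and 6702 CPM over clusters 0 and 6, a ratio of 0.44 (0.42 to 0.46). Within cluster 0 the ratio of Apoc3 was 0.45 (0.35 to 0.54), and within cluster 6 it was 0.05 (-0.02 to 0.13). Apoc3 thus changed side between all hepatocyte-like cells and clusters 0 and 6. For Apoc1 the ratio was -0.14 (-0.19 to -0.09) within cluster 6 and 0.06 (-0.002 to 0.12) within cluster 0, where the interval included 0. Apoc1 was above 0 beyond counting error within cluster 9, at 0.22 (0.10 to 0.33), on 21 N-LKO cells.

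Apoe, the ligand for receptor uptake, was at 8091 CPM for WT and 7487 CPM in N-LKO hepatocyte-like cells, a ratio of -0.11 (-0.13 to -0.10). Over clusters 0 and 6 it was at 8522 CPM (8475 to 8569.8) and 11684 CPM (11584 to 11783), a ratio of 0.46 (0.44 to 0.47). Apoe and Apoa1 were the 2 genes that were higher in N-LKO in clusters 0 and 6 alike with intervals above 0: for Apoe the ratio was 0.60 (0.53 to 0.66) in cluster 0 and 0.58 (0.52 to 0.65) in cluster 6. Markers of other cell types were present over clusters 0 and 6. The 8 Kupffer markers summed to 289.7 CPM for WT and 232 CPM in N-LKO, the 8 monocyte and macrophage markers to 101 and 181 CPM, the 5 plasmacytoid dendritic markers to 147 and 255 CPM and the 6 neutrophil markers to 17.4 and 43.5 CPM, with none at 0. The 8 cholangiocyte markers, of which 1 was at 0 in WT, summed to 77.1 CPM and 545 CPM, and the 6 proliferation genes to 25.6 CPM and 132 CPM; their part in these ratios was not tested.

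**Figure D2:**
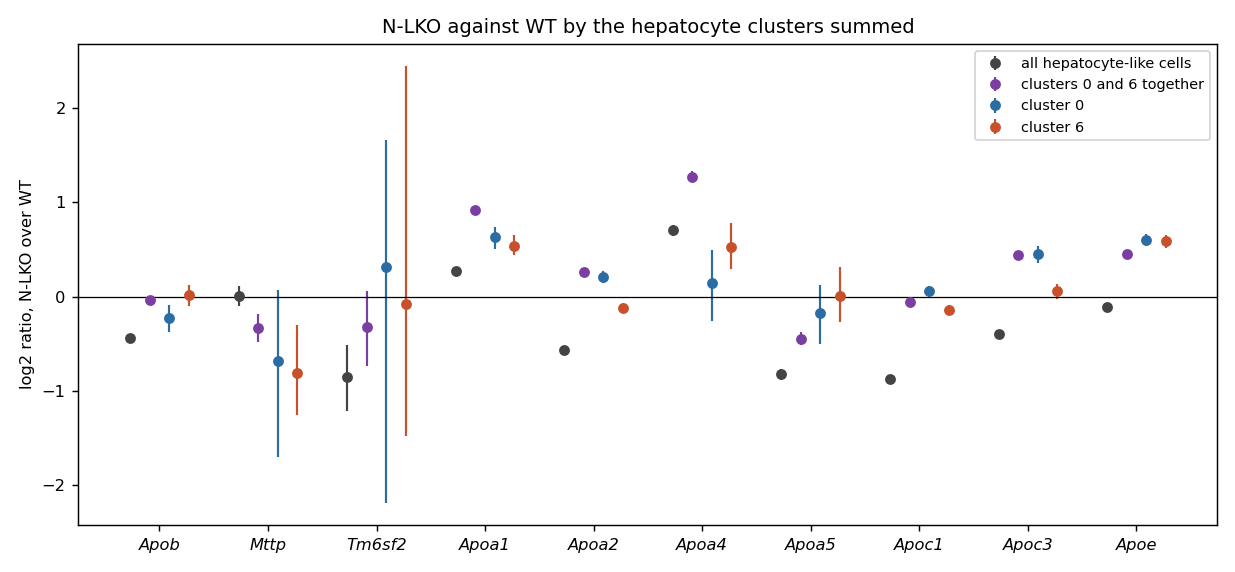
Log2 ratio of N-LKO over WT for each gene over all hepatocyte-like cells, over clusters 0 and 6 together and within each of them, with exact 95% intervals. Apoa1 and Apoe lie above 0 inside both clusters and Mttp below, while Apob, Apoa2, Apoc1 and Apoc3 lie near 0 or change side.

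The ratios of most of the 10 genes fell as the Malat1 share rose. How all genes moved across these bins was not computed, so the fall cannot be called particular to the 10 genes. Hepatocyte-like cells of both libraries were split at common edges into 4 bins of equal total size. In the lowest bin, up to 0.289% Malat1, the median ratio of the 10 genes was 0.25, and it was 0.03, -0.68 and -1.26 in the next bins. Apoc1 was at 17381 CPM for WT and 16378 CPM in N-LKO in the lowest bin, and at 11115 CPM and 2127 CPM in the highest. Apoe went from a ratio of 0.62 (0.60 to 0.65) to -1.0 (-1.03 to -0.97). Mttp was the exception, with ratios of 0.05 (-0.21 to 0.30) in the lowest and 0.19 (0.00 to 0.37) in the highest bin.

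**Figure D3:**
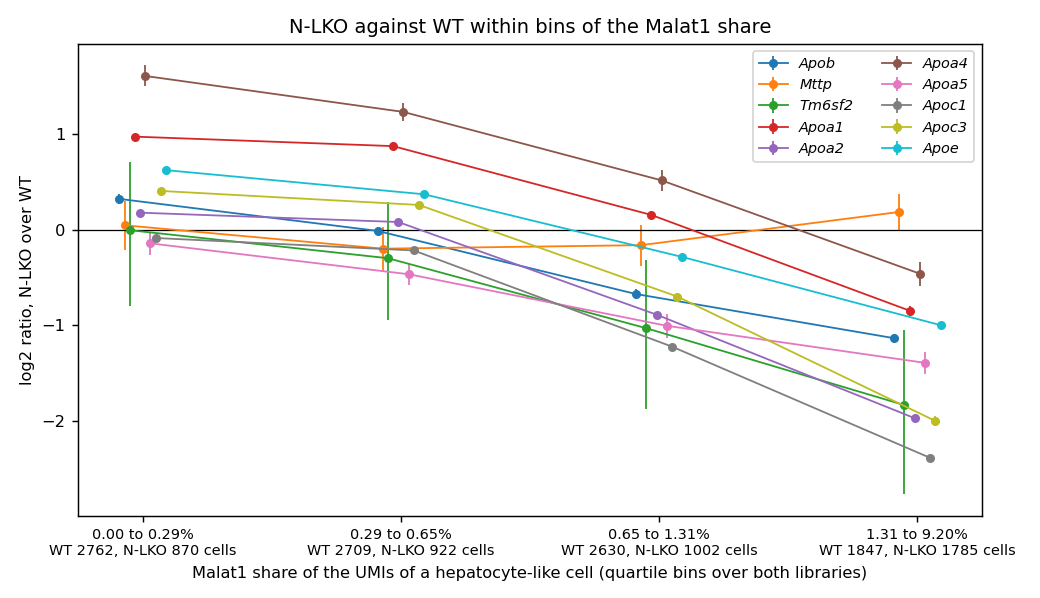
Log2 ratio of N-LKO over WT of each gene within quartile bins of the Malat1 share of hepatocyte-like cells, with exact 95% intervals and the cells per library under each bin. The ratios of 9 genes drop from the lowest to the highest bin, and that of Mttp does not.

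Clusters within a library also differed in this way, in part. In N-LKO, the log2 ratio of Malat1-rich cluster 4 over cluster 6 was -2.99 (-3.04 to -2.94) for Apoc3, -2.82 for Apoc1, -2.71 for Apoa2, -1.91 for Apoa1, -1.72 for Apoe and -1.27 for Apob. Mttp alone was higher, at 0.41 (0.24 to 0.58). In WT, cluster 17 against cluster 0 gave -1.46 for Apoc3, -1.47 for Apoc1, -1.19 for Apoa2, -0.66 for Apoa1 and -1.40 for Apoe, and -0.15 (-0.51 to 0.16) for Mttp. The WT values rest on the 321 cells of cluster 17. Across the WT bins of Malat1 share, 5 of the 10 genes were higher in the highest than in the lowest bin. They were Apob (2392 and 3107 CPM), Apoa5 (498 and 591 CPM), Apoa4 (296 and 327 CPM), Mttp (104 and 124 CPM) and Tm6sf2 (13.5 and 15.9 CPM). The share of all genes that rose across the WT bins was not computed. Gene span moved with the cluster ratios over all genes: in N-LKO the median ratio of cluster 4 over cluster 6 was -1.75 for 603 genes of up to 5000 bp and 1.58 for 2825 genes of over 50000 bp. In WT the medians of cluster 17 over cluster 0 were -0.71 and 1.28. Mttp spans 55115 bp and Apob 39188 bp, while the other 8 genes span 1326 to 7143 bp. In N-LKO cluster 4, Apoa2 (2316 CPM), Apoc1 (2010 CPM), Apoc3 (843 CPM) and Apoe (3528 CPM) were below the level of the T and NK-like cells of the same library (2713, 2758, 1051 and 7382 CPM). Apob (1309.7 against 930.0 CPM), Mttp (143 against 53.0 CPM) and Apoa5 (213 against 139 CPM) were above it, and the intervals of Apoa1, Apoa4 and Tm6sf2 overlapped.

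The barcodes taken as free RNA had their own difference between the libraries. In barcodes under 500 UMIs, Apoa2 was at 17181 CPM for WT and 6787 CPM in N-LKO, Apoc1 at 17959 and 5622 CPM, and Apoc3 at 5487 and 2408 CPM. These 3 of the 10 genes were 2-fold or more lower in N-LKO, where 16.8% of 10135 genes were, and Apoa4 (188 and 565 CPM) was past 2-fold higher, where 18.6% were. Apob (1406 and 1860.1 CPM), Apoa1 (2242 and 2946 CPM) and Apoe (6482 and 8350.3 CPM) were higher in N-LKO. The short mRNAs were the lower ones. Over all genes at 20 CPM or more, the median ratio in free RNA was -1.35 for 103 genes with mRNAs of over 400 and up to 600 nt, -1.07 for 427 genes of over 800 and up to 1200 nt, and 0.49 for 1931 genes of over 4000 nt. Apoa2 (-1.34), Apoc3 (-1.19) and Apoc1 (-1.68) lay in the first of these classes, and Apoa1 (0.39) stood well above the median of the second.

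In clusters 0 and 6 the order by length was reversed, with medians of 0.40 for 96 genes of 400 to 600 nt, 0.52 for 430 genes of 800 to 1200 nt and -0.04 for 1992 genes of over 4000 nt. Against these, Apoc3 (0.44) lay near the median of its length class, Apoa2 (0.26) and Apoc1 (-0.06) lay below it, and Apoa1 (0.92) lay above the upper quartile of its class, 0.84. Apoe (0.46), with an mRNA of 1408 nt, lay inside the quartiles of its class, -0.11 to 0.51. Apoa4 (1.27), with 1815 nt, lay above those of its class, -0.30 to 0.33.

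The position of hepatocytes along the lobule was scored from pericentral and periportal marker genes in cells thinned to 1000 UMIs, and each library was split into terciles of the score. The score was a range and not a cell type, with 1377 of 8416 WT and 447 of 2065 N-LKO cells of clusters 0 and 6 close to an edge of a tercile. In WT 9 of the 10 genes were higher on the periportal side, but the share of all genes on that side was not computed. Their ratios of pericentral over periportal ran from -0.59 for Tm6sf2 to -0.11 for Apob. Apoc3 was at 5888 CPM in the periportal and 4033 CPM in the pericentral tercile, a ratio of -0.55 (-0.57 to -0.52), Apoa4 at 450.1 and 303 CPM (-0.57, -0.67 to -0.47) and Apoa1 at 2916 and 2184 CPM (-0.42, -0.45 to -0.38). In N-LKO Apoa4 lay the other way round, at 611 CPM in the periportal and 1249 CPM in the pericentral tercile, a ratio of 1.03 (0.92 to 1.14). Apoa2 changed side too, less widely, from -0.15 (-0.17 to -0.13) in WT to 0.14 (0.12 to 0.17) in N-LKO. Apoa1 was even in N-LKO, at 0.01 (-0.03 to 0.06), while Apoc1 (-0.32) and Apoc3 (-0.16) stayed higher on the periportal side. Mttp was even across WT terciles, at 135 and 136 CPM, and at 82.2 and 146 CPM in N-LKO, a ratio of 0.82 (0.50 to 1.15). Apoa5 was periportal in both libraries, with ratios of -0.32 (-0.39 to -0.25) in WT and -0.68 (-0.84 to -0.53) in N-LKO. The Malat1 level was 8623 and 8581 CPM in the WT terciles and 4914 and 3807 CPM in those of N-LKO, and its part was not tested. Over all hepatocyte-like cells the directions of Apoa4 (-0.53 in WT, 0.64 in N-LKO) and Mttp (0.03 and 0.60) were kept. Apoa2 did not change side there (-0.09 and -0.03).

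**Figure D4:**
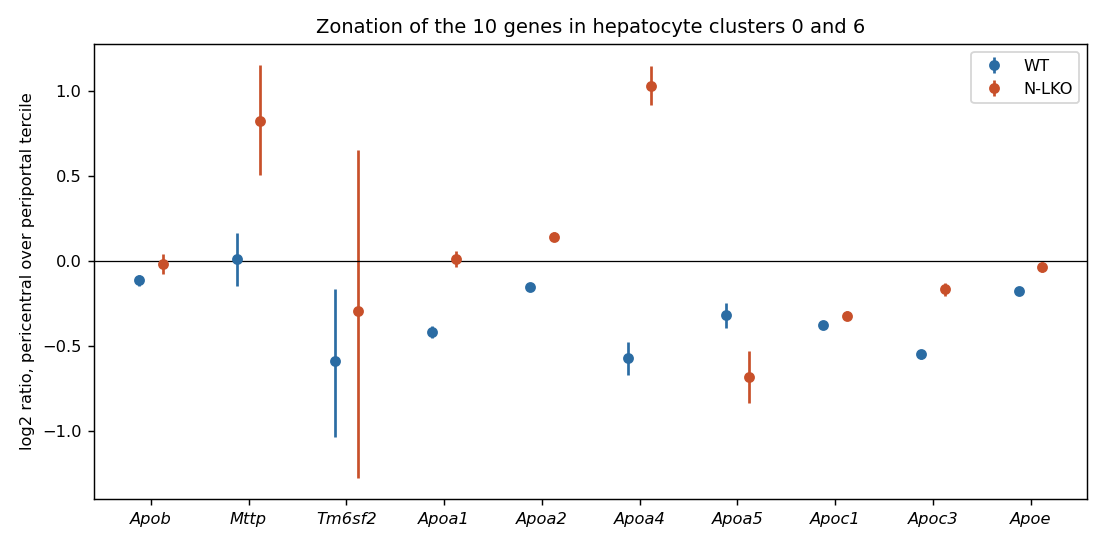
Log2 ratio of the pericentral over the periportal tercile of hepatocyte clusters 0 and 6 for each gene in WT and N-LKO, with exact 95% intervals. Apoa4 and, less widely, Apoa2 lie below 0 in WT and above 0 in N-LKO. The interval of Mttp lies above 0 in N-LKO and includes 0 in WT, and Apoa5 lies below 0 in both.

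Outside the hepatocytes, most of the 10 genes followed free RNA. The share of free RNA in a class was estimated from 12 hepatocyte markers, as 0.395 and 0.373 in macrophage-like cells and 0.493 and 0.468 in T and NK-like cells of WT and N-LKO. Apoe in the Kupffer cluster 1 stood far above that level, at 12822 CPM (12677 to 12969.6) in WT, where free RNA alone would give 2426 CPM, and at 19210.2 CPM (19094 to 19326) in N-LKO, where it would give 2860.1 CPM. Kupffer cells are the resident macrophages of the liver, and macrophages are a known source of ApoE outside the hepatocyte. The monocyte and macrophage cluster 5 was at 4344 CPM and 5527 CPM, against 3053 CPM and 3908 CPM from free RNA. Over all macrophage-like cells Apoe was at 10244 CPM (10138 to 10351) in WT and 15064 CPM (14981 to 15148) in N-LKO, a ratio of 0.56 (0.54 to 0.57), and in cluster 1 the ratio was 0.58 (0.56 to 0.60). The smaller Kupffer cluster 18, of 112 WT and 182 N-LKO cells and led by the proliferation genes Top2a, Hist1h1b, Pclaf and Mki67, was at 8849 CPM and 14080.1 CPM, against 1747 and 2056 CPM from free RNA.

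Apoc1, the neighbour of Apoe, was also above free RNA in Kupffer cells of N-LKO. It was at 2945 CPM (2900 to 2991) in cluster 1, where free RNA alone would give 1926 CPM, and in WT it was at 6446 CPM, where free RNA would give 6723 CPM. Set against Apoa2, which Kupffer cells hold only at or below the free level (4871 against 6432 CPM for WT and 1969 against 2325 CPM in N-LKO), Apoc1 stood at a ratio of 1.05 in free RNA and 1.32 in cluster 1 of WT, and of 0.828 and 1.5 in N-LKO. In mixed cluster 7, which showed Kupffer and endothelial markers, the values for WT and N-LKO were 1.35 and 1.26. In other cells they were 1.198 and 1.103 for cholangiocyte-like cells and 1.07 and 1.02 for T and NK-like cells. Apoe was above free RNA in other cells too. T and NK-like cells were at 4429 CPM for WT and 7382 CPM in N-LKO against 3195 and 3909 CPM. Mixed cluster 8, which showed stellate and endothelial markers, was at 6008 CPM for WT and 6230.1 CPM in N-LKO against 1739 and 3347 CPM, and cholangiocyte-like cells were at 6531 and 5718 CPM against 3171 and 3860.3 CPM.

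**Figure D5:**
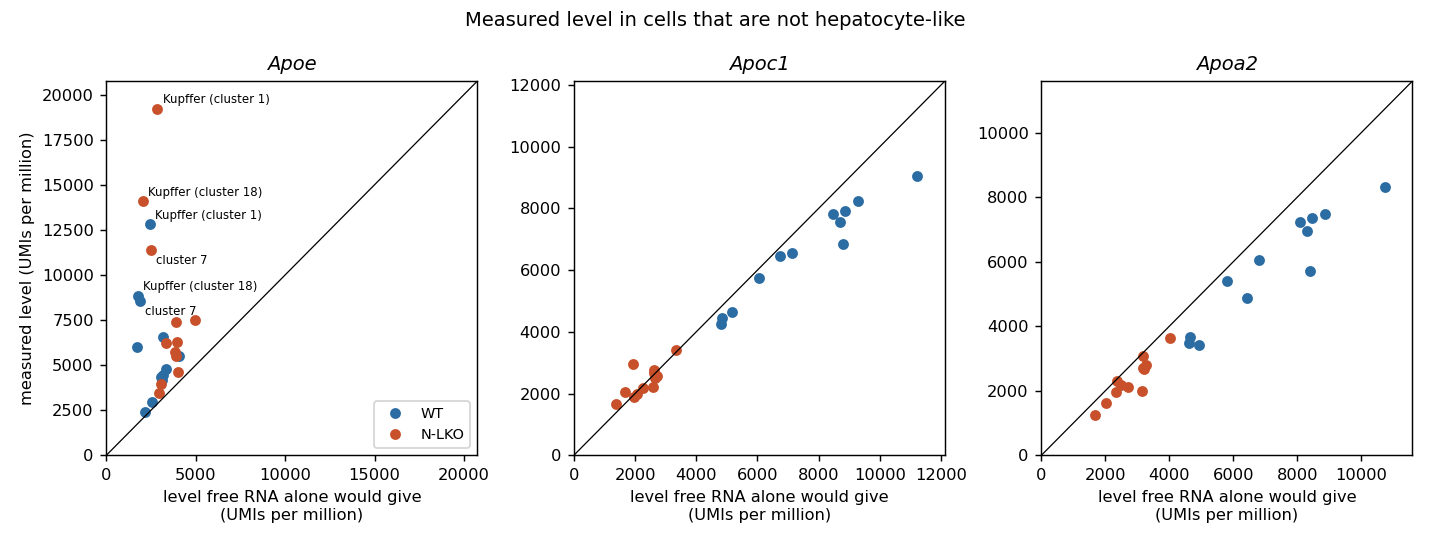
Measured level of Apoe, Apoc1 and Apoa2 (CPM) in clusters and classes that are not hepatocyte-like against the level that free RNA alone would give, with the line of equality. Kupffer clusters 1 and 18 and mixed cluster 7 stand highest above the line for Apoe, while Apoa2 lies at or below it. Mixed cluster 7 showed Kupffer and endothelial markers.

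The patterns of the 10 genes over cells were compared by Pearson correlation of log2(CPM + 1) over 39 combinations of cluster and library with 50 or more cells, among 14359 genes, as a description only, since these share libraries, free RNA and depth. The genes most like Apob were Trf (r = 0.97), Ahsg (0.96) and Ugt2b5 (0.96), of which Trf and Ahsg are secreted by hepatocytes. Those most like Apoe were Creg1 (0.88), Lipa (0.83), the lysosomal acid lipase, and Lamp1 (0.82), a lysosomal membrane protein.

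Genes around the 10 were followed in 7 lists, over all hepatocyte-like cells and then over clusters 0 and 6. Of 15 other apolipoproteins and lipoprotein-bound proteins at 5 CPM or more, 3 were 2-fold or more lower in N-LKO over all hepatocyte-like cells and none higher, where 2.51% and 24.9% of all genes were, with a median of -0.23 against 0.45. The 3 were Apol7a (67.2 to 24.98 CPM, -1.42), Apol9b (49.7 to 21.2 CPM, -1.23) and Apon (316 to 141 CPM, -1.16), of which Apol7a and Apol9b stayed past 2-fold over clusters 0 and 6 (-1.32 and -1.22) while Apon was at -0.59. The 2 most abundant, Apoc4 (1359 to 944 CPM) and Apoc2 (1070 to 1203 CPM), the cofactor of lipoprotein lipase, had ratios of 0.28 and 0.98 over clusters 0 and 6. Clu, a lipoprotein-bound chaperone, was past 2-fold only there, at 1.06 (1.01 to 1.10). Of 20 genes of VLDL lipidation, coat vesicle export and ER chaperoning, none was past 2-fold in either comparison, where 24.9% of all genes were 2-fold higher over all hepatocyte-like cells, and the medians were 0.06 and 0.06 against 0.45 and 0.07 for all genes. The chaperones Hspa5 and Hsp90b1, the most abundant of them, were at 475 and 441 CPM for WT and 622 and 602 CPM in N-LKO, and their ratios over clusters 0 and 6 were 0.75 (0.69 to 0.80) and 0.76 (0.70 to 0.82).

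Of 15 genes that supply lipid for VLDL, 3 were 2-fold or more higher and 2 lower over all hepatocyte-like cells, against 24.9% and 2.51% of all genes, with a median of -0.21 against 0.45. Lpin1 and Lpin2, phosphatidate phosphatases, were at 75.6 and 246 CPM for WT and 221 and 504 CPM in N-LKO, and Lpin1 stayed higher over clusters 0 and 6 (1.42, 1.29 to 1.55) while Lpin2 was at 0.25. Dgat1, which makes triglyceride, was at 6.43 and 15.4 CPM, from 108 and 145 UMIs. The carboxylesterases Ces1e (79.4 to 27.8 CPM, -1.51) and Ces1d (175 to 80.0 CPM, -1.13) were lower, at -1.36 and -0.97 over clusters 0 and 6. The abundant Acsl1, which activates fatty acids, was at -0.60 over all and at -1.16 over clusters 0 and 6, and Hsd17b13, a lipid droplet protein, at 0.13 and 0.40. Pnpla3, a lipid droplet hydrolase, was at 15.4 and 11.01 CPM over all, and at -2.01 (-2.85 to -1.34) over clusters 0 and 6.

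Of 10 genes of Apob mRNA editing and ApoB degradation, 3 were 2-fold or more higher over all hepatocyte-like cells and 1 over clusters 0 and 6, against 24.9% and 6.02% of all genes. Sorl1, a sorting receptor, was at 5.06 and 17.4 CPM and kept a ratio of 1.57 (1.10 to 2.05) over clusters 0 and 6. Sort1 (6.43 to 16.2 CPM) was at 0.08 there, and Apobec1, the deaminase that edits the Apob mRNA (36.4 to 84.8 CPM), at 0.51. The most abundant, Vcp and A1cf, the partner of Apobec1, had ratios of -0.48 and 0.88 over all and 0.06 and -0.36 over clusters 0 and 6.

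Of 9 lipoprotein receptor and uptake genes, Scarb1 (46.1 to 116 CPM), the receptor for high density lipoprotein, and Stab1 (10.5 to 24.8 CPM) were 2-fold or more higher and Sdc1 (129 to 59.3 CPM) lower over all hepatocyte-like cells, where 24.9% and 2.51% of all genes were, and none was past 2-fold over clusters 0 and 6. Lrp1, an uptake receptor, was at 150 and 162 CPM over all hepatocyte-like cells. Of 13 genes of plasma remodelling, 3 were 2-fold or more higher and 1 lower over all hepatocyte-like cells, against the same 24.9% and 2.51%. Lpl, lipoprotein lipase, was at 46.8 CPM for WT and 168 CPM in N-LKO and kept a ratio of 1.91 (1.76 to 2.05) over clusters 0 and 6, and its inhibitor Angptl4 (16.2 to 43.5 CPM) kept one of 1.76 (1.5 to 2.03). Abcg1 (9.10 to 25.1 CPM) was past 2-fold over all hepatocyte-like cells but at 0.43 over clusters 0 and 6. Abcg8, a sterol exporter, was at 131 and 53.1 CPM, and at -1.53 (-1.76 to -1.31) over clusters 0 and 6. The hepatic lipase gene Lipc (-1.18) and Abcg5, the partner of Abcg8 (-1.07), were past 2-fold lower only over clusters 0 and 6. The abundant Abca1, a lipid exporter, had a ratio of 0.50 over all and of -0.22 over clusters 0 and 6.

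Of 20 regulators of apolipoprotein genes, 4 were 2-fold or more higher and 2 lower over all hepatocyte-like cells, and 0 and 2 over clusters 0 and 6, against 24.9% and 2.51%, and 6.02% and 3.12%, of all genes. The list median over all hepatocyte-like cells was 0.47 against 0.45. Ppara (254 to 718 CPM), Foxo1 (63.2 to 221 CPM), Ppargc1b (17.3 to 55.5 CPM) and Nr1h4 (165 to 348 CPM) were the higher ones, and their ratios over clusters 0 and 6 were -0.08, 0.61, 0.14 and -0.30. Srebf1, which drives fatty acid synthesis, was at 171 CPM for WT and 47.4 CPM in N-LKO, and kept its ratio over clusters 0 and 6 (-1.86, -2.06 to -1.66). Cebpa (94.5 to 43.4 CPM) was at -0.76 there. The abundant Thrb, a thyroid hormone receptor, was at 0.89 over all and -0.39 over clusters 0 and 6. Nr2f2, a repressor of apolipoprotein genes, was the other regulator past 2-fold over clusters 0 and 6, at -1.08 (-1.34 to -0.83).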

How the data were processed

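Single-cell libraries of WT and N-LKO mice, 1 per group, were analysed. Gene-by-barcode matrices of raw UMI counts were deposited by the authors, made with Cell Ranger 7.1.0 per the file headers; the submitters' notes also name Seurat and the build mm9, and whether intronic reads were counted is not given in the sources used here. Depth was 326 to 6945 UMIs per barcode in WT and 377 to 10712 in N-LKO.

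Barcodes with at least 1000 UMIs, 400 genes and at most 30% mitochondrial UMIs were kept, and doublets with a Scrublet score over 0.25, a limit also set after seeing the data (8.57% in WT, 10.6% in N-LKO) were removed. Cells were clustered without the 10 genes (2000 variable genes, 30 components, 20 neighbors, leidenalg 0.10.2 at resolution 0.3; scanpy 1.11.5) and named from marker lists. The naming limit of 0.15 was set after seeing the data. UMIs were summed per class, with a prior of 0.5 UMI in ratios, exact Poisson and conditional binomial intervals, and no test between groups. Genes at 5 CPM or more in a library were counted past 2-fold. Clusters over 2 times or under 0.5 times the median Malat1 share of hepatocyte-like clusters were left out of the middle group. The free RNA share of a class was estimated from summed markers of other types (12 hepatocyte markers for cells that are not hepatocyte-like) with at least 100 UMIs in barcodes under 500 UMIs. Named genes were the 10 genes, listed genes past 2-fold over all hepatocyte-like cells and the 2 most abundant in WT of each list; Clu, Pnpla3, Lipc, Abcg5 and Nr2f2 were added after their values had been seen, and some listed genes are not reported here. The 10 genes and the lists were chosen with earlier results of these data known. Lengths, spans and positions came from GENCODE M21 (GRCm38), matched for 32235 of 32285 gene identifiers, and promoters from RefSeq (GRCm38.p6). Ratios and intervals were tested on simulated data. Cell names were rebuilt here, so a difference from the study may come from them.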

Additional observations from a re-analysis of the deposited data

How the results depend on the processing

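Values are log2 ratios of N-LKO over WT. The median over the 10 genes was -0.42 and the ratio of their sum -0.46 in hepatocyte-like cells, and Apoe in macrophage-like cells was at 0.56. With a minimum of 500 UMIs per barcode these became -0.25, -0.35 and 0.58, without a mitochondrial limit -0.46, -0.51 and 0.51, with a mitochondrial limit of 10% -0.33, -0.75 and 0.71, with mitochondrial UMIs left out of the total -0.50, -0.54 and 0.64, and centred on the median of all genes -0.87, -0.91 and 0.61. The median and the sum were -0.32 and -0.36 at clustering resolution 0.6, and -0.44 and -0.48 with each cell thinned to 1000 UMIs. With ratios averaged over the 4 bins of the Malat1 share, they were -0.44 and -0.48. The sum was at 0.27, 0.13, -0.71 and -1.61 in those bins, from the lowest share to the highest, so the average hides a change of sign. The sum alone moved without doublet removal (-0.44), with the UMIs of the 10 genes left out of the total (-0.48) and averaged over bins of the mitochondrial share (-0.49), where Apoe in macrophage-like cells was at 0.71. With free RNA subtracted, which left no Apoa2 in WT, the median of the other 9 genes was -0.63 and Apoe in macrophage-like cells 0.59, but the sum turned to 0.36, Apoa4 to -0.38, Apoc1 to 1.37 and Apoc3 to 0.94, and Apob went to -1.43 and Apoa5 to -2.06.

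With only hepatocyte clusters 0 and 6, whose Malat1 share was lower in N-LKO than in WT, the median turned to 0.11 and the sum to 0.26. Apoa2 turned to 0.26, Apoc3 to 0.44 and Apoe to 0.46. The next 3 settings were chosen after seeing the data. Without the Malat1-rich N-LKO cluster 4, the median was 0.16, the sum 0.29, Apob 0.069, Apoa2 0.26, Apoc3 0.46 and Apoe 0.52. Within the hepatocyte clusters with 50 or more cells of both libraries, the median was 0.081, the sum 0.17, Tm6sf2 0.12, Apoa2 0.043, Apoc3 0.25 and Apoe 0.59. In Kupffer clusters alone, Apoe was at 0.59. Apoe in hepatocyte-like cells also turned with a minimum of 500 UMIs (0.025), without doublet removal (0.0051) and with a mitochondrial limit of 10% (0.018), and Apoa1 with that limit (-0.052) and when centred (-0.18). The cause was not tested. Apoa5 was below 0 under all 17 alternatives, and Apoe in macrophage-like cells above 0 under all 14 run.

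Of genes tested in hepatocyte-like cells, 2940 were past 2-fold, 8355 without the filter on low values and 2087 when centred; 90.9% of them were higher in N-LKO, against 58.6% when centred. No paired analysis was possible because the groups share fewer than 2 replicate numbers and no test was run. With 1 library per group, depth limits only the counting error, which is widest for Tm6sf2.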
